A study of Mus musculus with 16 samples.

Results

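Selp, F11r, Slamf1, Vwf, Plscr2 and Clca1, 6 genes known for higher RNA in aged blood stem cells, were followed through the histone marks of old and young stem cells. Each gene stands for 1 window of the mouse build mm9, and its members are all peaks and islands, the stretches that a peak caller marked as enriched, that touch the window. The windows were chosen from genes known to differ with age, with their covered lengths in these same libraries in view, so every difference between the ages given for them is a description without a test. Of 610361 peaks and islands in the 16 lists, 307 touched the 6 windows, 39 of them H3K4me3, 264 H3K36me3 and 4 H3K27me3. The lists hold no RNA measurement, so whether the genes were expressed more in the old cells was not analysed here.

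The cells were hematopoietic stem cells from the bone marrow of C57BL/6 mice, sorted by the SP-KSL-CD150+ gate, which joins dye efflux (SP) with the surface markers KSL and CD150. Old mice were 24 months and young mice 4 months old, with no other treatment or allele in the labels, and the series design calls the mice wild type. Each mark was mapped by chromatin immunoprecipitation and sequencing (ChIP-seq): H3K4me3 in 2 old and 2 young libraries, H3K36me3 in 3 old and 3 young, and H3K27me3 in 3 old and 3 young. Libraries are called here by their replicate number, which is 7 and 8 for H3K4me3, 4 to 6 for H3K36me3 and 1 to 3 for H3K27me3. The labels describe each library as a technical replicate belonging to a numbered biological replicate and tie none to an animal, so the spread between them may be partly technical.

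H3K4me3 is placed at the start of active genes, H3K36me3 is laid down behind elongating RNA polymerase over the gene body, and H3K27me3 is the mark of Polycomb repression. A gene that is transcribed therefore tends to carry a block of H3K4me3 at one end and a broad field of H3K36me3 from there to the other end. The genes have different jobs. Selp encodes P-selectin, F11r the junctional adhesion molecule JAM-A and Slamf1 the receptor CD150, all on the cell surface. Vwf encodes von Willebrand factor, the secreted glycoprotein that tethers platelets to vessel walls, and in mice it also marks stem cells that lean towards platelet production. Plscr2 encodes a phospholipid scramblase, and Clca1 a regulator of calcium-activated chloride channels. CD150 was part of the sort, so the cells were picked for the product of Slamf1. Other markers of the gate were not looked up, since gene models of mm9 were not used here. In sorted populations, fewer cells with a mark and less of the mark per cell cannot be told apart.

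The starts of 4 genes are shown here because H3K4me3 lies at such sites. Each line gives the 300 bases from 250 before to 50 after the annotated start, on the gene's own strand and 5′ to 3′, with every CG dinucleotide in capitals, from RefSeq on GRCm38.p6. That build is not mm9, so these letters are not placed inside the peaks described later. Selp, F11r and Slamf1 are on the plus strand, and Clca3a1, which RefSeq also lists under the older name Clca1, is on the minus strand.
Selp, chr1:164115014-164115313: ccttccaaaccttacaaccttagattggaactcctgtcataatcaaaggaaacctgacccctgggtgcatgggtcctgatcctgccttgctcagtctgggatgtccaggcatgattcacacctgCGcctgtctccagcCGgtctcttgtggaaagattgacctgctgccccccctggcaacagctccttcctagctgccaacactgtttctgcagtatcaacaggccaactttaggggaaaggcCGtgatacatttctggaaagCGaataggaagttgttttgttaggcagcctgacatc
F11r, chr1:171437311-171437610: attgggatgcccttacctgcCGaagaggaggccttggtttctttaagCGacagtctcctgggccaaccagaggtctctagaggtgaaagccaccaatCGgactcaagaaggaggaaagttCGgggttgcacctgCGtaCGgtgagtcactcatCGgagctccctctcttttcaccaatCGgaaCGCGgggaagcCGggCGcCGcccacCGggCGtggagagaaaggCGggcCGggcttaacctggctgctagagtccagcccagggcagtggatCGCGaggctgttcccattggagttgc
Slamf1, chr1:171766882-171767181: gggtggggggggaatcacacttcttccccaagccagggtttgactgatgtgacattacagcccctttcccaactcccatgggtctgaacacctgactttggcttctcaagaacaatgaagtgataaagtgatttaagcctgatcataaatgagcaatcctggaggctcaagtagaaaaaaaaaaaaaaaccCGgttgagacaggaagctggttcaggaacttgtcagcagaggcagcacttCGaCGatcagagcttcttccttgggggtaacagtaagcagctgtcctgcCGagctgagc
Clca3a1, chr3:144760928-144761227: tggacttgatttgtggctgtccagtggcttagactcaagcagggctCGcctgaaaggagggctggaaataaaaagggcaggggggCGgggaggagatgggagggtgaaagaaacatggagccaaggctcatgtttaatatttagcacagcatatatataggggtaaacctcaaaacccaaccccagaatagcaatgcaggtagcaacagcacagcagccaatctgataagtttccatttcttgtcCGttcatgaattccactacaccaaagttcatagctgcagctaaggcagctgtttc

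The F11r start was rich in CG dinucleotides and the other 3 were poor in them. F11r had 19 CG in its 300 bases, more than 71.9% of the 32851 RefSeq starts in the same table, where the median was 7 CG. Selp and Slamf1 had 4 each, and 31.4% of all starts had fewer. Clca3a1 had 3, and 23.3% had fewer. Of 3 motifs searched on both strands, AGGAAG, a form that ETS factors bind, was in Selp and Slamf1 and in 35.4% of all starts. AGATAA was in none of the 4 and in 11.2% of all starts, and TGTGGT, a form that RUNX factors bind, was in none of the 4 and in 16.8%. These motifs, which share no overlapping copy here, were picked after the sequences were seen. Plscr2, Vwf and the gene now called Clca1 are named only. The files do not say whether the window called Clca1 refers to that gene or to Clca3a1.

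The lists differed in size, and a pair of young libraries stood apart. H3K4me3 lists held 16258 to 19923 peaks over 26.9 to 32.5 Mb, H3K36me3 lists 6399 to 84437 peaks over 5.90 to 138 Mb, and H3K27me3 lists 17752 to 47197 islands over 123 to 179 Mb. Young H3K36me3 library 4 was the list of 6399 peaks and had no peak in any of the 6 windows. A median of 35.8% of its covered length lay under each other H3K36me3 list, against 40.8 to 75.7% for the other 5. Young H3K36me3 library 5 was broken into short pieces, with a median peak width of 354 bp against 794 to 1437 bp in the other 5. Young H3K27me3 library 1 shared a median of 3.84% of its covered length with each other H3K27me3 list, against 43.4 to 55.2% for the other 5. Read depth is unknown for all of them, so no counting interval can be given, and the part of depth or enrichment in any difference was not tested. Titles also carry a number from 16 to 21 that the labels do not explain, and values within a number are given where it occurs at both ages.

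H3K4me3 covered more of each of the 6 windows in both old libraries than in either young library. Here a window is called longer when every old library covers more base pairs of it than every young library. That held in 6 of 6 windows, where 15.9% of the 13862 tiles of 50 kb with an H3K4me3 peak were longer and 11.6% were shorter. The rule used this contrast, so nothing is read from that gap. The Selp, Plscr2 and Clca1 windows had the widest distance between the ages, while Slamf1 and F11r were well covered at both. Title number 18 holds old library 7 and young library 7, and there the difference was smallest at Slamf1, 295 bp, and largest at Selp, 3528 bp. That all 6 differences have the same sign follows from the order just given, and 30.2% of tiles were longer in that pair.

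At Selp the mark was a broad old block with little left of it in young cells. P-selectin holds rolling leukocytes and platelets to each other and to the vessel wall. Its window, chr1:166030000-166095000, had 4339 and 5465 bp under H3K4me3 in old libraries 7 and 8, against 811 and 0 bp in young libraries 7 and 8. The means were 4902 ± 796 bp in old libraries, against 405.5 ± 573.5 bp in young ones (SD, n = 2 each), a ratio of 12.1. That ratio rests on a single young peak: it was 6.04 without young library 8, and without young library 7 the young value is 0 bp and no ratio can be given. Nearly all of it was 1 merged region, made by joining peaks of all 4 lists that overlap or abut, at chr1:166045096-166050183. There the old lists covered 4339 and 4890 bp with the score 3100 in each, the value that 46.9 to 59.0% of the peaks in an H3K4me3 list carry and that 111 to 164 peaks of a list exceed. The only young peak spanned 811 bp with a score of 203, and 0.956% of its list scored lower. Of 20660 merged H3K4me3 regions in the genome, this one had the largest difference in mean covered length, old minus young. A further region at chr1:166081782-166082356 was held by old library 8 alone, over 575 bp.

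F11r carried a strong block at both ages that was wider in old cells. JAM-A sits at cell contacts and on blood cells and platelets. The window, chr1:173355000-173405000, had 4662 and 4933 bp in the old libraries, against 3670 and 3481 bp in the young ones. The groups did not overlap, and the means were 4797.5 ± 192 bp in old libraries, against 3575.5 ± 134 bp in young ones (SD, n = 2 each), a ratio of 1.34. The main region, chr1:173367121-173371482, was covered over 3921 and 4170 bp in old libraries, against 2574 and 2531 bp in young ones, with the score 3100 in all 4 lists. By old minus young it ranked 41 of 20660. A smaller neighbour at chr1:173371879-173373086 went the other way, with 741 and 763 bp in old libraries, against 1096 and 950 bp in young ones. Its scores were 463 and 355 in old and 502 and 774 in young lists, so the wider main block stood next to a narrower and separate small one.

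Slamf1, the gene of the sort marker CD150, had a block at both ages whose length overlapped between them. Its window, chr1:173685000-173745000, had 2542 and 3427 bp in old libraries, against 2247 and 1699 bp in young ones. The means were 2984.5 ± 626 bp in old libraries, against 1973 ± 387.5 bp in young ones (SD, n = 2 each), a ratio of 1.51. The order of the ages was lost with peaks joined across gaps of up to 1 kb, with 2542 and 3427 bp in old libraries, against 2358 and 2554 bp in young ones. In the main region, chr1:173696815-173699648, the ages overlapped, with 2033 and 2834 bp in old libraries, against 2247 and 1699 bp in young ones. The scores were 3100 in both old lists and 1160 and 485 in the young lists, and 48.8 and 52.3% of the old lists scored lower, against 26.2 and 12.2% of the young ones. Each young list also broke the region into 2 peaks, where each old list had 1. A second region at chr1:173703717-173704309 was held by the old lists alone, over 509 and 593 bp in old and 0 bp in both young libraries. It was a weak one, with 15.3 and 4.90% of the old lists scoring lower, and by mean covered length it ranked 566 of the 792 regions that both old and no young libraries held. The young lists held few peaks of such low score. A score of 203 had 0.956% of young library 7 below it, against 14.6% of old library 8. In young library 8, 1.07% of peaks scored below 248. The part of this difference in old-only regions was not tested.

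At Vwf most of the difference between the ages lay in 1 region out of 3. The window, chr6:125490000-125650000, had 2079 and 3445 bp in old libraries, against 1675 and 816 bp in young ones. The means were 2762 ± 966 bp in old libraries, against 1245.5 ± 607 bp in young ones (SD, n = 2 each), a ratio of 2.22. With single libraries left out, that ratio ranged from 1.65 (without young library 8) to 3.38 (without young library 7). With peaks at or above the median score of their list the window had 0 bp in all 4 libraries. That median was 3100 in old library 7 and both young lists, and 2640 in old library 8. The region at the lowest coordinates, chr6:125502749-125504182, was covered over 1119 and 1384 bp in old libraries and over 0 bp in both young ones. Its scores of 685 and 831 placed it above 28.4 and 35.6% of the old lists, and it ranked 14 of the 792 old-only regions. The next region, chr6:125522376-125523507, was shorter in old cells, with 606 and 778 bp against 847 and 816 bp in young libraries. The last, chr6:125553103-125554385, had 354 and 1283 bp in old libraries, against 828 and 0 bp in young ones, so the ages overlapped there. By the mean over all 4 libraries the middle region is the leading one of this window, although the first carries the difference between the ages.

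Plscr2 had no H3K4me3 peak at all in either young list. Scramblases move phospholipids between the leaflets of the plasma membrane. The window, chr9:92160000-92205000, had 2734 and 3461 bp in old libraries and 0 bp in both young ones, which is 3097.5 ± 514 bp in old (SD, n = 2). No ratio is given against a group listed at 0. The region at chr9:92170215-92173103 was covered over 2734 and 2858 bp in old libraries, with the score 3100 in each. It was the longest of the 792 regions held by both old and no young libraries, whose median was 628.5 bp. A small neighbour at chr9:92173374-92173976 was held by old library 8 alone, over 603 bp.

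Clca1 had a small young peak that was several times wider in old cells. The window, chr3:144385000-144435000, held a single region, chr3:144421772-144424818, with 2477 and 3047 bp in old libraries, against 802 and 701 bp in young ones. The means were 2762 ± 403 bp in old libraries, against 751.5 ± 71.4 bp in young ones (SD, n = 2 each), a ratio of 3.68 or 1.88 on the log2 scale. With peaks at or above the median score of their list, old library 7 and both young libraries had 0 bp and old library 8 had 3047 bp, so the ages then overlapped. That median was 3100 in old library 7 and both young lists, and 2640 in old library 8. The peak of old library 7, with a score of 2940, therefore fell just below its cutoff. Among the 14489 regions that all 4 lists held, 1 had a higher log2 ratio, while the median was -0.01 and the 99th percentile 0.64. The scores were 2940 and 3100 in old and 200 and 248 in young lists. The young peaks were thus among the weakest of their lists, with 0.883 and 1.07% of peaks scoring lower, whereas 47.9 and 52.3% scored lower in the old lists. These shares also depend on the make-up of each list. A score of 203 stood above 14.6% of old library 8 and above 0.956% of young library 7.

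**Figure D1:**
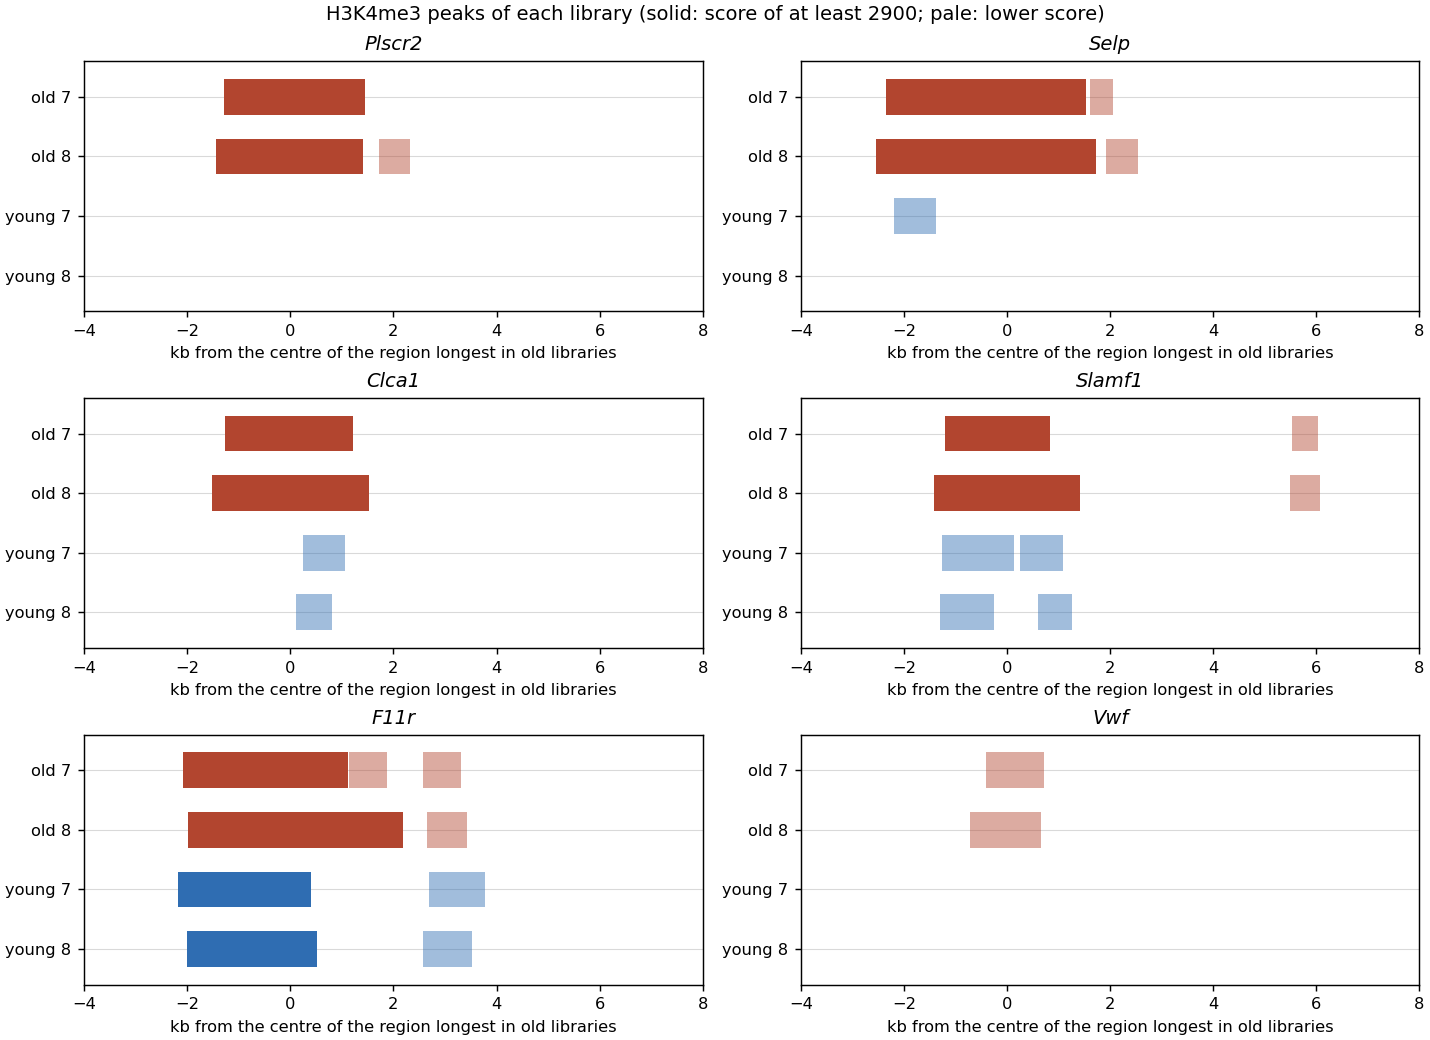
H3K4me3 peaks around the block of each gene that is longest in old cells, with 1 row per library and old rows above young rows. The x axis is the distance in kb from the centre of that block. The middle region of Vwf, 19.48 kb from the centre, lies outside the range shown. Bars are peaks as deposited. The old block at Plscr2 has no young counterpart, those at Selp and Clca1 face 1 short peak in 1 or both young rows, and F11r and Slamf1 have blocks in all 4 rows.

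Across the windows the lists gave 12 merged H3K4me3 regions, of which 6 were longer in old cells, 2 were shorter and 4 overlapped between the ages. Over all 20660 merged regions 13.9% were longer and 12.2% shorter. Of the 12, 3 (at Slamf1, Vwf and Plscr2) were held by both old and no young libraries, as were 3.83% of all regions. In turn, 5 were held by all 4 libraries and 2 by old library 8 alone. Each window had exactly 1 longer region, and the 2 shorter ones, at F11r and Vwf, lay beside a longer one. The rule used these differences, and nothing is read from the counts.

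**Figure D2:**
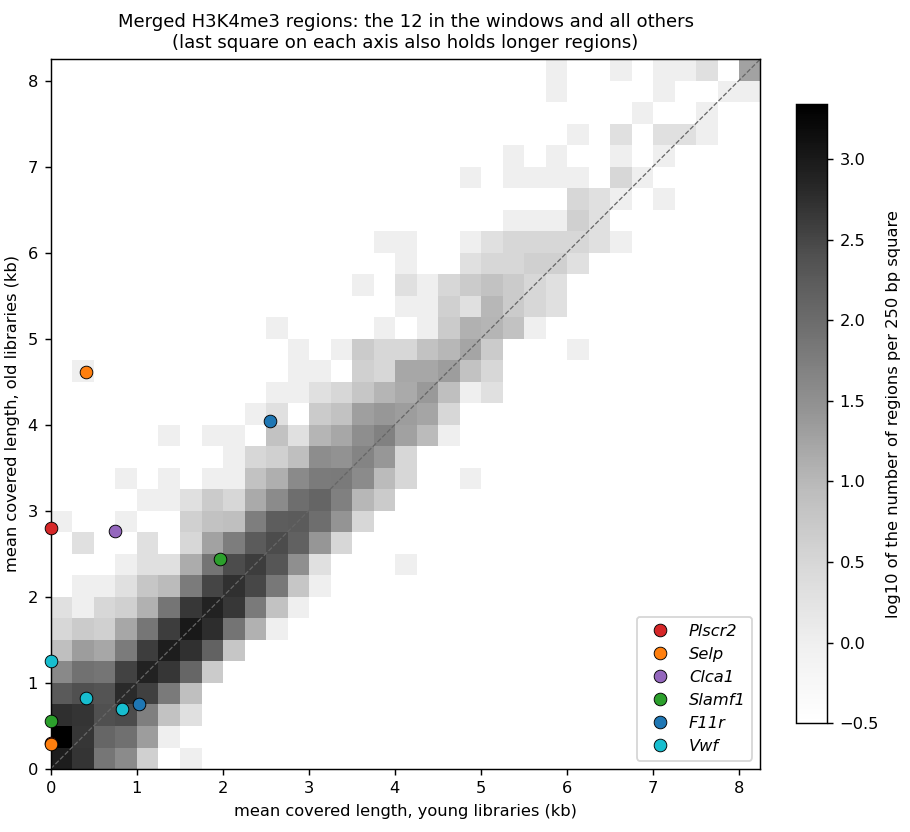
Mean covered length of merged H3K4me3 regions in old libraries (y axis) against young libraries (x axis), in kb, with all 20660 regions as a shaded background and the 12 regions in the windows as coloured points. The main Selp region has the largest vertical distance from the line of equality in the genome. The F11r and Vwf regions that were shorter in old cells lie just below that line, and small regions with 0 in young libraries overlie one another at the left edge.

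The 100 kb on each side of the windows did not share 1 direction. These flanks, chosen after values in the windows were seen, held 23 merged H3K4me3 regions, 4 longer in old cells, 4 shorter and 15 overlapping. Among all 20660 merged regions, 13.9% were longer and 12.2% were shorter. Around Selp the flanks were shorter in old cells, 2413 ± 157 bp against 2943 ± 182 bp in young libraries (SD, n = 2 each). Around F11r they overlapped, with 13548.5 ± 2208 bp in old libraries, against 13959.5 ± 838 bp in young ones. Around Slamf1, Clca1, Plscr2 and Vwf the old flanks were longer, at Plscr2 with 3994 ± 1229 bp in old against 2663.5 ± 336 bp in young libraries. No share over the genome was computed for flanks of this length, so these orders are descriptions.

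H3K36me3 covered more of the Selp and Plscr2 windows in every old than in every young library, and for the other 4 genes the ages overlapped. That is 2 of 6 windows longer, where 1.67% of the 17294 tiles with an H3K36me3 peak were longer, and 0 of 6 shorter, where 0.0694% were shorter. Without young library 4, which had no peak in any window, it was again 2 of 6, beside 1.95% of tiles. The rule used this mark too, so the counts are descriptions. Among the young lists, library 6, the largest H3K36me3 list with 138 Mb, always covered more than library 5, and library 5 more than library 4.

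**Figure D3:**
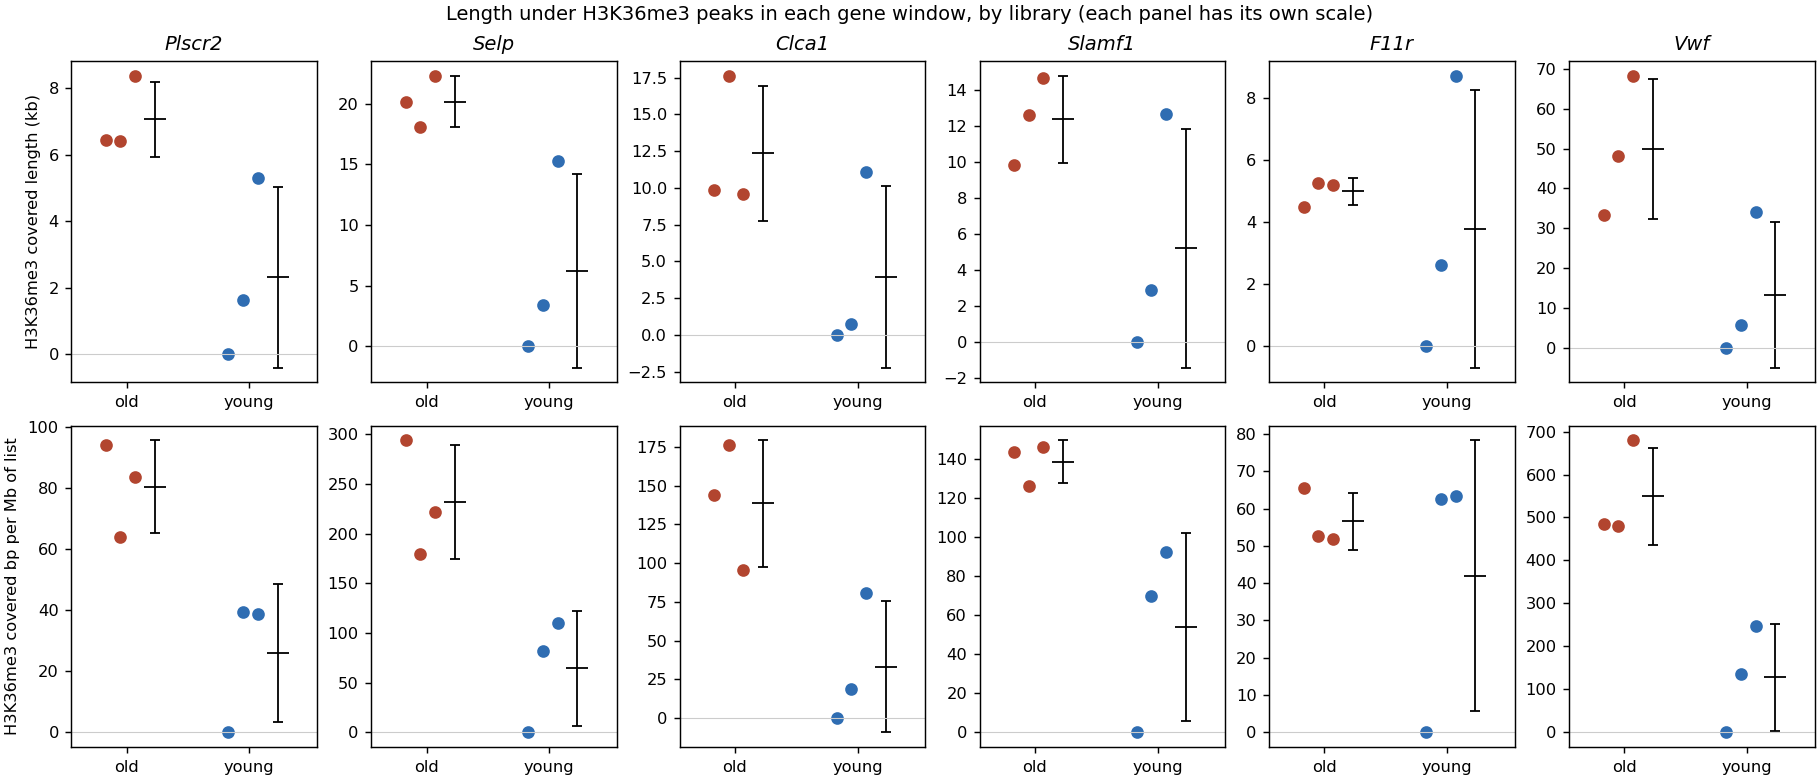
Length of each window under H3K36me3 peaks for the 6 genes, in kb (upper row) and in bp per Mb of the whole list (lower row). Each library is 1 point, old left of young, with bars for the mean and SD (n = 3 each). Each panel has its own scale. Young library 4 is at 0 in every window. In the upper row, only at Selp and Plscr2 do all 3 old points lie above all 3 young points. In the lower row they do so at every gene but F11r.

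Selp had the clearest H3K36me3 field. Old libraries 4, 5 and 6 covered 20161, 18024 and 22290 bp of its window, against 0, 3423 and 15234 bp in young libraries 4, 5 and 6. All old values lay above all young ones, and the means were 20158 ± 2133 bp in old libraries, against 6219 ± 7993 bp in young ones (SD, n = 3 each). All 4 of its merged regions were longer in old cells. One of them, chr1:166066906-166068786, was held by all old and no young libraries, with 1842, 1049 and 1604 bp in old. Of the old lists, 69.2, 29.3 and 61.1% scored lower than that region. The longest single peak in the window was 6064 to 8875 bp in old lists, against 699 bp in young library 5 and 2159 bp in young library 6. Peaks of young library 5 were short over its whole list, with a median width of 354 bp.

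Plscr2 split into a shared and an old field. The window had 6437, 6407 and 8381 bp in old libraries, against 0, 1634 and 5314 bp in young ones, so the groups did not overlap. They overlapped with peaks at or above the median score of their list, with 4112, 3393 and 4104 bp in old libraries, against 0, 1325 and 4048 bp in young ones. They also overlapped with equal numbers of peaks per list, where only old library 4, with 4112 bp, and young library 5, with 1325 bp, had any. On the side of higher coordinates from the H3K4me3 block the old libraries covered 2325, 1872 and 2873 bp, and all 3 young libraries covered 0 bp. On the side of lower coordinates the ages overlapped, with 4112, 4535 and 5508 bp in old libraries, against 0, 1634 and 5314 bp in young ones. One region of the old side, chr9:92188639-92191024, was held by all old and no young libraries, over 1330, 1016 and 1180 bp in old. Its scores were low, with 38.1, 32.0 and 45.3% of the old lists below them. The split by side was made after the values were seen.

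Vwf is a long gene, and its field was the widest of the 6. The window had 33300, 48151 and 68281 bp in old libraries, against 0, 5646 and 34049 bp in young ones, so old library 4 fell just below young library 6. In the 48.9 kb between the old-only H3K4me3 region at low coordinates and the last region, old libraries 5 and 6 had 2960 and 10147 bp and old library 4 had 0 bp. All 3 young libraries had 0 bp there. In the remaining 95.6 kb of the window the mark covered 33300, 45191 and 58134 bp in old libraries, against 0, 5646 and 34049 bp in young ones. Every young H3K36me3 peak in the window thus lay beyond the last H3K4me3 region, a split made after the values were seen. A region within the longer stretch, chr6:125609805-125611621, was held by all old and no young libraries, over 641, 869 and 1130 bp in old. It was weak, with 4.62, 27.5 and 32.4% of the old lists scoring lower.

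For Clca1, Slamf1 and F11r the largest young list reached into the old range. Clca1 had 9850, 17638 and 9564 bp in old libraries, against 0, 768 and 11101 bp in young ones. Slamf1 had 9837, 12595 and 14665 bp in old libraries, against 0, 2893 and 12684 bp in young ones. F11r had 4489, 5268 and 5204 bp in old libraries, against 0, 2605 and 8716 bp in young ones, and young library 6 was the highest of all. F11r is the gene whose direction turned: the old mean lay 1213 bp above the young mean with all libraries, and the difference was -673.5 bp without young library 4.

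Set against the size of each list, 5 of 6 windows were longer in old cells, beside 6.27% of tiles. Covered length per Mb of the whole list was longer in every old than in every young library at all genes but F11r. At Selp it averaged 232 ± 57.7 bp per Mb in old and 64.3 ± 57.5 in young libraries (SD, n = 3 each), and 96.5 ± 19.9 in young libraries without library 4 (SD, n = 2). At Vwf it was 549 ± 113 bp per Mb in old and 128 ± 124 in young libraries, or 191.5 ± 78.7 without library 4. At F11r it was 56.6 ± 7.67 bp per Mb in old and 42.0 ± 36.4 in young libraries, or 63.0 ± 0.412 without library 4, so the ages overlapped. Within title number 16, where the young list is library 4 with 0 bp throughout, and within number 18, where it is library 5, the old library covered more in 6 of 6 windows each, but so it did in 81.1 and 92.0% of tiles. Without young library 6 the count was 6 of 6, beside 49.8% of tiles. These shares are large over the whole genome, so the 3 counts say little about the 6 genes.

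Counted by region, the H3K36me3 lists gave 60 merged regions in the windows, 11 of them longer in old cells and 49 overlapping. Over all 80861 merged H3K36me3 regions 2.24% were longer. The 11 comprised 4 at Selp, 4 at Vwf and 1 each at Slamf1, Clca1 and Plscr2, and F11r had none. The 3 regions held by all old and no young libraries, at Selp, Plscr2 and Vwf, stand beside 0.472% of all regions.

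At each gene H3K36me3 began outside the H3K4me3 block. No H3K36me3 peak of any library lay inside the H3K4me3 region that was longest in old cells, in any of the 6 windows. At Selp, F11r, Slamf1 and Vwf H3K36me3 lay only at higher coordinates than that region, and at Clca1 only at lower coordinates. RefSeq has Selp, F11r and Slamf1 on the plus strand and Clca3a1 on the minus strand. The span from the outer edge of the H3K4me3 region to the far end of H3K36me3 was 35.2 kb at Selp, where the RefSeq gene on GRCm38.p6 is 34.8 kb long. It was 28.1 kb at F11r for a gene of 27033 bp, and 42.8 kb at Slamf1 for a gene of 34.1 kb. It was 135.6 kb at Vwf for a gene of 133.7 kb, and 23.6 kb at Plscr2, towards higher coordinates, for a gene of 22.2 kb. At Clca1 it was 31.1 kb, where Clca3a1 is 31.3 kb and the current Clca1 is 28.2 kb. Spacing along chromosome 1 was alike in both builds: the H3K4me3 regions of Selp and F11r start 7322.0 kb apart on mm9 and the RefSeq starts lie 7322.3 kb apart on GRCm38.p6, and for F11r and Slamf1 the values are 329.7 and 329.6 kb.

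**Figure D4:**
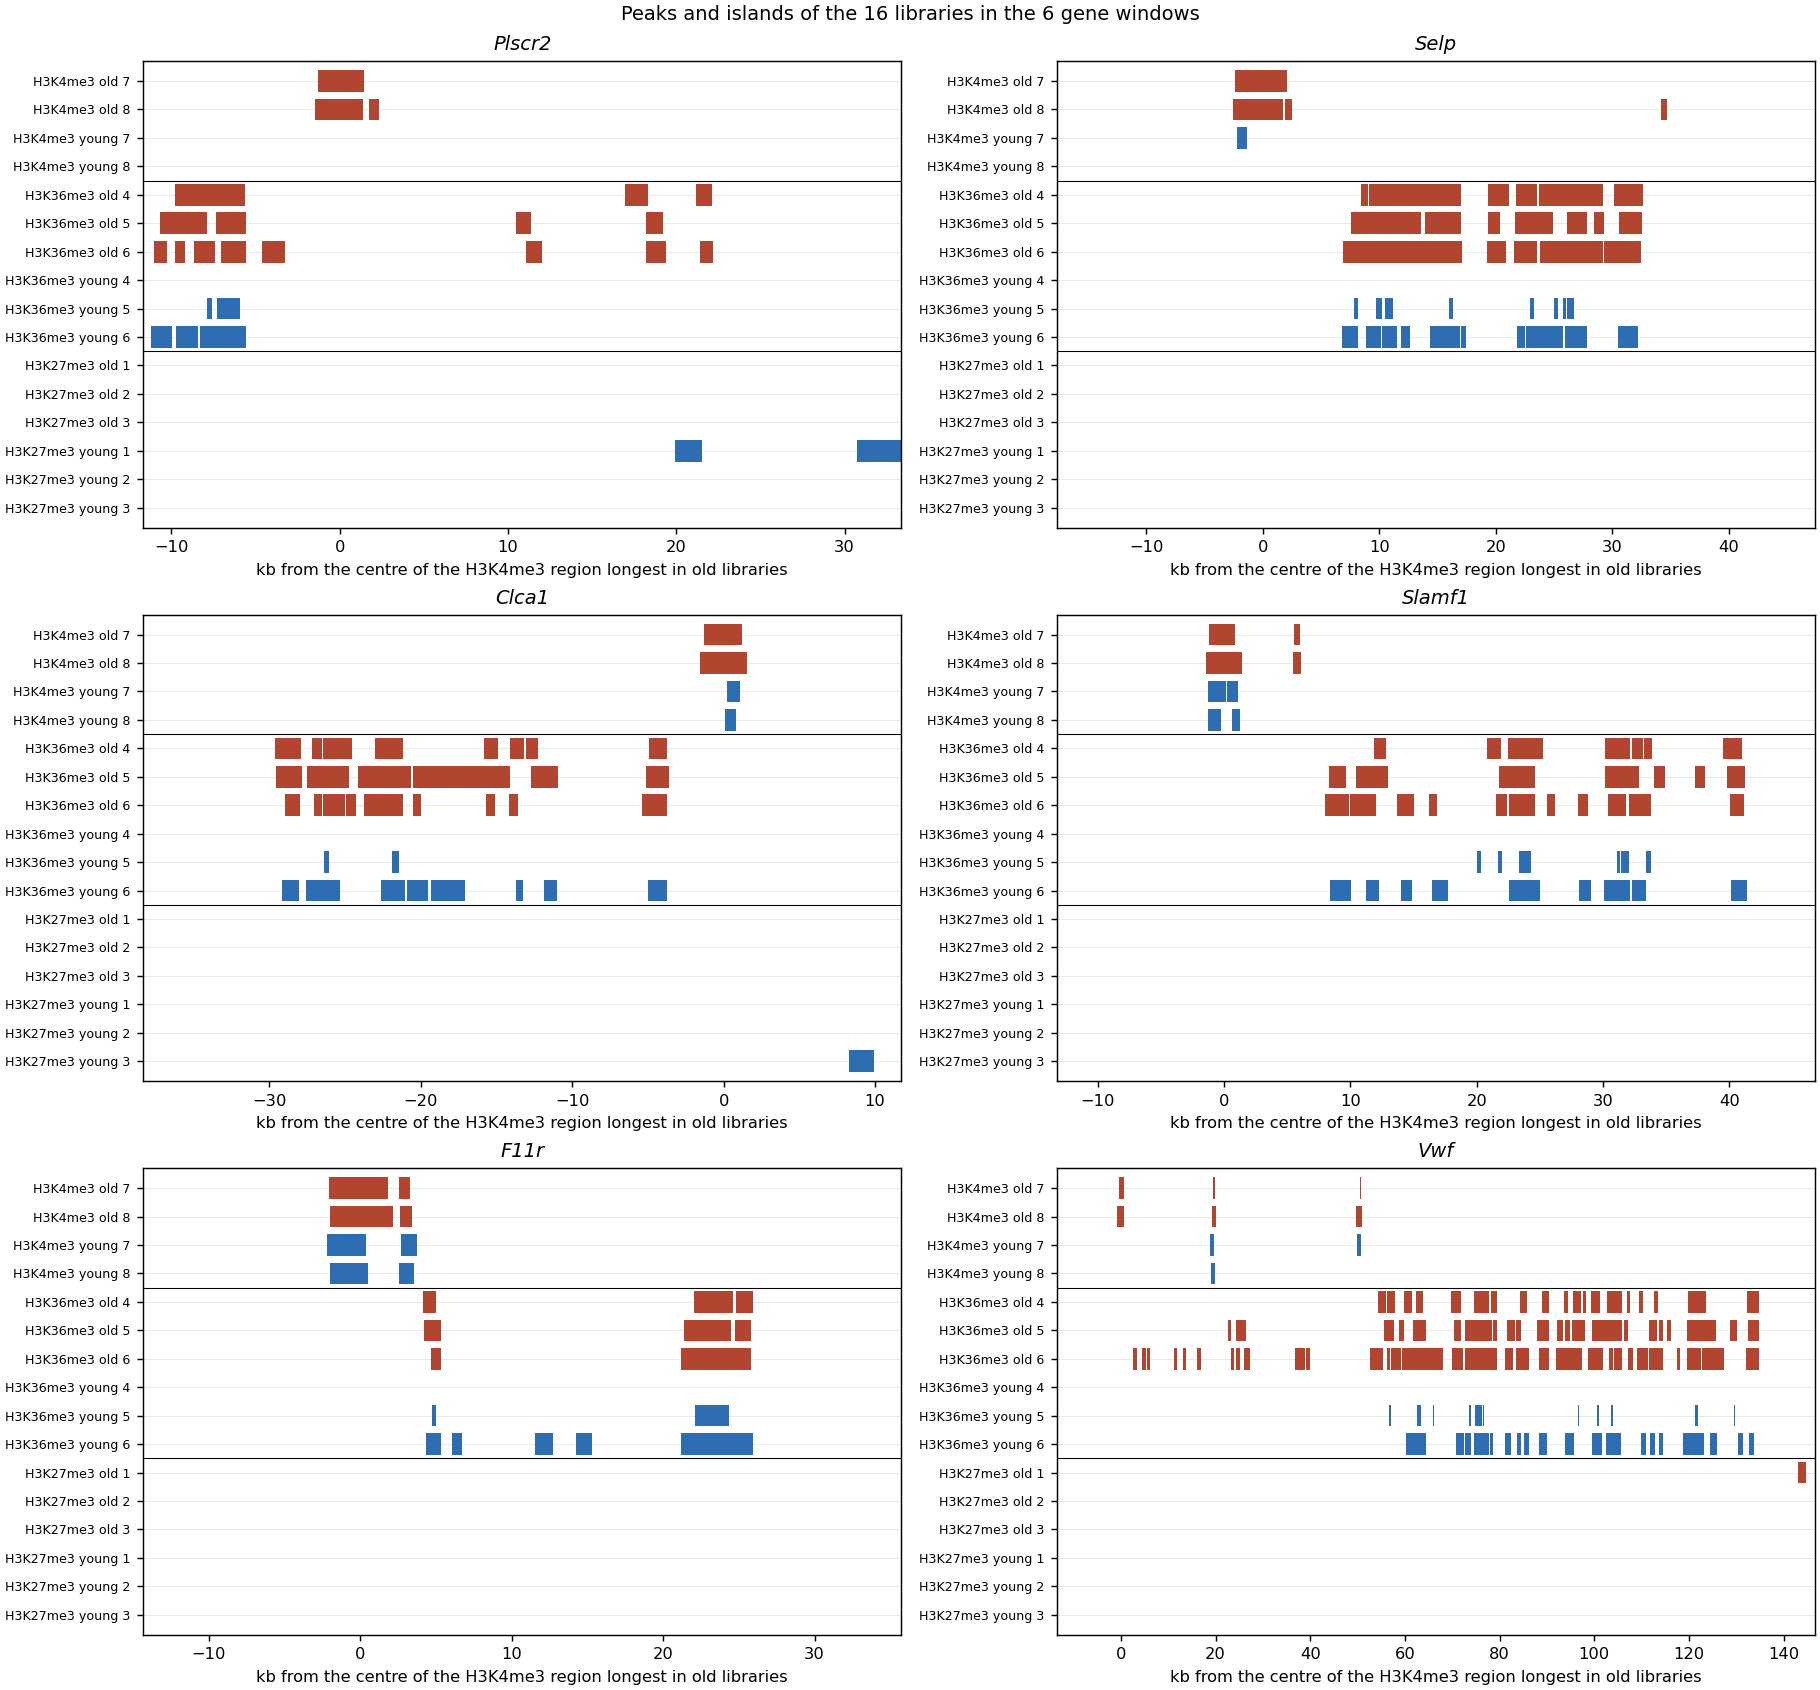
Peaks of all 16 libraries in each window, with old rows above young rows within each mark and the distance in kb from the centre of the H3K4me3 region that is longest in old cells on the x axis. H3K4me3 forms a block at 0 in the old rows, H3K36me3 spreads to 1 side of it at every gene but Plscr2, which has both sides, and H3K27me3 is nearly empty, with 4 islands in all.

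H3K27me3 was nearly absent from the 6 genes at both ages. Old library 1 had an island at Vwf, chr6:125646601-125648200, which lies at the end of the window far from the H3K4me3 regions. Young library 3 had an island at Clca1, chr3:144431601-144433200, and young library 1, the list that stood apart, had 2 islands at Plscr2. Selp, F11r and Slamf1 had none in any of the 6 lists. In all, 0 of 6 windows were longer in old cells, where 6.14% of 37082 tiles with an island were longer, and 0 of 6 were shorter, where 1.15% were shorter. Both counts were also 0 without young library 1. These counts follow from the sparse islands, since each of the 4 was in a single library and a call needs all libraries of an age. Every tile held at least 1 island, whereas Selp, F11r and Slamf1 held none, so the tile shares are no like measure. Within title number 20 the window of Clca1 was shorter in the old library, 1 of 6, where 48.1% of tiles were shorter. No island of any library touched the H3K4me3 region that was longest in old cells. The nearest island lay 28.3 to 336.8 kb away at Selp, 86.5 to 134.5 kb at F11r, 141.4 to 464.2 kb at Slamf1 and 134.5 to 212.0 kb at Vwf over the 6 libraries. At Plscr2 it lay 147.1 to 215.6 kb away without young library 1 and 18.5 kb away in that library, and at Clca1 6.8 to 488.2 kb away. The young regions that lacked H3K4me3 at Plscr2 and Vwf thus carried no H3K27me3 island in these lists either.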

How the data were processed

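Each library came as 1 deposited peak list, called by the authors per sample. The submitters' processing notes name CASAVA 1.4, SICER, MACS and the build mm9. Caller versions, cut-offs, controls and depth are not given in these sources. The deposited lists carry a score per peak or island with no stated unit, so scores were used to describe, rank or select peaks within a list. Scores of old and young lists are also printed side by side, but whether they share a scale is unknown and their differences were not tested.

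The 6 genes, their windows and the lists were chosen with earlier results of these data known, so no test or p-value is given. All 6 genes are named, with every merged region touching their windows. Covered length is the base pairs of a window under the peaks of a library, and 0 means no listed peak. Overlapping or abutting peaks of a mark were merged, and a library held a region from 1 bp of coverage on. Tiles of 50 kb with at least 1 peak gave the background. SICER islands were read with both ends included on their 200 bp grid. Likeness between H3K4me3 regions was the Euclidean distance in log2(bp covered + 200) over the 4 libraries. Scripts ran in Python 3.11.15 with numpy 2.4.6 and pandas 2.3.3 and were tested on simulated lists. Gene names, lengths and starts came from RefSeq tables on GRCm38.p6, by symbol (all 6 genes; promoter sequence for 4, Clca1 through its synonym), and no coordinate was converted between builds. Alternatives were another peak threshold, equal numbers of peaks, scaling, window bounds, joined peaks, single libraries left out, title numbers and 100 kb tiles.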

Additional observations from a re-analysis of the deposited data

How the results depend on the processing

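Of 66 alternative values of the H3K4me3 difference, old minus young, over the 6 genes, 65 were positive and 1 was 0 bp, that of Vwf with peaks at or above the median score. The count of windows longer in every old library was 4 with that threshold, which removed Clca1 and Vwf, and 5 with peaks joined across 1 kb, which removed Slamf1. The median-score threshold was 3100 in old library 7 and both young lists, and 2640 in old library 8. The count was 6 with equal numbers of peaks, scaled lists, widened windows and narrowed windows. No share of tiles was computed for these H3K4me3 settings, so nothing is read from the counts. The size of the difference did change. At Clca1 it went from 2010.5 to 3219.5 bp with widened windows, and at Vwf from 1516.5 to 698 bp with equal numbers of peaks. Leaving out a library or keeping title number 18 could not lower the count of 6, since a complete separation of the ages holds in every subset. For the same reason the sign of each difference under those settings was fixed in advance, and nothing is read from it. For H3K36me3, 83 of 84 differences were positive, with F11r without young library 4 the exception. Its count of longer windows, 2 as reported, was 5 with lists scaled to the same total covered length, 6 within title number 16 and 6 within title number 18. It ranged from 2 to 6 when single libraries were left out, with 6 without young library 6. These higher counts within title numbers and without young library 6 stand beside 92.0, 81.1 and 49.8% of all tiles for number 18, number 16 and the lists without library 6. Plscr2 was no longer among the longer windows at the median score or with equal numbers of peaks. Vwf joined them at the median score, where the count was again 2. Clca1 and Vwf joined them with equal numbers of peaks, where the count was 3. No share of tiles was computed for either setting. For H3K27me3, 8 of 84 differences were positive, 56 were 0 and 20 were negative, and the count of shorter windows, 0 as reported, was 1 within title number 20 (Clca1). The cause was not tested for any of these. With at least 50% of a region covered to count as held, 5 H3K4me3 and 2 H3K36me3 regions, in place of 3 each, were held by every old and no young library. No share over all merged regions was computed for the 50% rule, so nothing is read from these counts. Tiles of 100 kb moved no share by more than 1.5 times. No paired analysis was possible because the values come from no test and thus have no fit to hold a replicate block, and the labels do not say that a number pairs samples; differences within title numbers are given as values. Depth and the animals behind each library are unknown, which limits every difference given.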

Other observations

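Beyond the windows, the H3K4me3 regions most like each gene's leading region over the 4 libraries were looked up by position. They are likeness in 4 values that share their libraries, and nothing is read from them about function. The nearest to Selp, chr6:126112248-126115244, at a distance of 1.046, had 2538 and 2921 bp in old libraries, against 648 and 0 bp in young ones, so Selp had no close match. The nearest to Clca1, chr16:18776642-18779220, at 0.652, had 1841 and 2579 bp in old libraries, against 847 and 1045 bp in young ones. The nearest to Plscr2, chr18:78319300-78321206, at 0.860, had 1769 and 1763 bp in old libraries and 0 bp in both young ones. Slamf1, F11r and the middle region of Vwf had matches at 0.060, 0.108 and 0.056, so regions of nearly the same values occurred elsewhere for them. The nearest to F11r, chr13:63340427-63344628, had 3871 and 3975 bp in old libraries, against 2726 and 2595 bp in young ones.

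H3K27me3 in the 100 kb on each side of Selp was longer in every old library, with 12867 ± 5630 bp in old libraries, against 2467 ± 2996 bp in young ones (SD, n = 3 each). Around Clca1 it was shorter, with 600.0 ± 1039 bp in old libraries, against 6200.0 ± 6416 bp in young ones. Over all tiles of 50 kb with an island, 6.14% were longer and 1.15% were shorter. No such share was computed for flanks of this length. The young values include library 1, the list that stood apart. Both differences are descriptions chosen after the values were seen.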
